A study of Mus musculus with 72 samples.

Results

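Wee1, Cdc25b, Ccnd1, Ccnd2, Cdkn1a, Cdkn1b, Myc and Mdm2 are 8 genes that hold or release the cell cycle and that have been tied to the circadian clock. They were taken by symbol from the 46078 genes counted in 72 mouse RNA-seq libraries, and each of the 8 passed the filter on low counts. The libraries come from interfollicular epidermis, the skin surface between hair follicles, which was separated from the dermis of back skin with dispase and frozen as cell pellets. All mice were C57BL/6 females of 8 weeks in a 12 h light:12 h darkness cycle, with 4 per genotype at each of 6 time points. K14-Cre mice (WT) have a normal Bmal1 gene (Arntl), which encodes an activator of the clock. In Bmal1-stopFL mice (KO), a cassette placed in the gene stops its transcription in the whole body. In Bmal1-stopFL/K14-Cre mice (RE), Cre removes the cassette where the K14 promoter is active, mainly in basal keratinocytes and their progeny. RE mice thus have Bmal1 in the epidermis and keep the cassette in other tissues. WT and RE carry K14-Cre and the labels name no Cre in KO, so KO differs from both in this respect too. The labels give the order of the time points and no hour of day, so peaks are given on a scale on which 7 is again time point 1, taking the points as evenly spaced over a day.

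The clock is a loop in which BMAL1 with CLOCK or NPAS2 switches on its own repressors, the Per and Cry genes, and output factors such as Dbp and Nr1d1. In dividing tissues such as the epidermis, S phase and mitosis fall at preferred times of day. At the G1 gate, D-type cyclins drive CDK4 and CDK6, which inactivate the RB proteins and free E2F, while p21 (Cdkn1a) and p27 (Cdkn1b) inhibit cyclin-dependent kinases. At the G2 gate, WEE1 adds an inhibitory phosphate to CDK1 and the CDC25 phosphatases remove it. MYC drives growth and entry into the cycle, and MDM2 marks p53, the activator of Cdkn1a, for degradation. Wee1 is the classical example of a cell cycle gene under direct clock control, known from mouse liver.

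Reads in genes ranged from 29551992 to 49461975 per library, and levels are given in CPM, the reads of a gene relative to all reads in genes, after scaling by the TMM method. Arntl was between 27.3 and 32.5 CPM on average at the time points of KO, and its mean over the day was below that of WT by 1.09 on the log2 scale (adjusted p = 6.37e-16). Basal and spinous keratinocyte markers were high in all groups. Among granular layer markers, Flg was at 0 in 49 libraries. The others (Lor, Hrnr, Ivl, Cdsn, Alox12b and Klk7) were found in every library, with medians from 6.52 CPM (Lor) to 130 CPM (Cdsn). Before the results, 5 libraries have to be named as in doubt. On scales built from 50 genes outside all lists used here, 3 libraries of time point 3 lay apart from their labels. Replicate 1 labelled KO lay away from KO, on the side of both other genotypes, replicate 2 labelled RE lay with WT, and replicate 2 labelled WT lay with RE. At time point 5, Krt14, the basal keratin, was at 274 CPM in replicate 4 of WT and at 343 CPM in replicate 3 of RE, against at least 2514 CPM in all others. On the scale with WT at 0 and RE at 1, these libraries lay at 2.14 and 3.44. The WT library was thus apart from its label on this scale too. The summed level of 8 cycling cell markers was 67.2 and 80.7 CPM there, against at least 284 CPM elsewhere. Fits were made with and without these 5 libraries. Leaving out libraries that lie with another genotype can itself widen differences between genotypes. The libraries also form 2 sets by the log2 ratio of the mitochondrial mt-Co1 to mt-Nd1, which was -3.75 to -3.02 in a first set of 40 and -6.02 to -5.09 in a second set of 32. The first set holds time points 1 to 4 of WT and 1 to 3 of both other genotypes. The labels name no batch, and in KO and RE the sets divide early from late time points. In these bulk samples fewer cells of a type and less RNA per cell cannot be told apart, and p-values measure the spread between mice, taken as separate animals from the stated number of females.

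Upstream sequence was found for 4 of the 8 genes in RefSeq (GRCm38.p6), and 3 windows of 250 bases before the start of transcription are shown because the results turn on Cdc25b, which was lower in KO, and on Cdkn1a and Mdm2, which moved together among libraries. Lower case is the RefSeq sequence, read 5′ to 3′ on the strand of the gene, and capitals mark motifs found by search of both strands.
Cdc25b, chr2:131186698-131186947, plus strand: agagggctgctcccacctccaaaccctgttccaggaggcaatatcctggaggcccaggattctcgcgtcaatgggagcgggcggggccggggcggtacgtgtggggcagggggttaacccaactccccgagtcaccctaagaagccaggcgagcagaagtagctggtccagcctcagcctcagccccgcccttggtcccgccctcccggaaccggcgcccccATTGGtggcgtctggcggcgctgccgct
Cdkn1a, chr17:29090729-29090978, plus strand: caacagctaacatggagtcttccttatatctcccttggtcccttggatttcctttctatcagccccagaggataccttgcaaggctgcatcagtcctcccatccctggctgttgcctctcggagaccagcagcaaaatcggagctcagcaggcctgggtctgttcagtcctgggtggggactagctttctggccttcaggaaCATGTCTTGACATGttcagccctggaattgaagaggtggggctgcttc
Mdm2, chr10:117710759-117711008, minus strand: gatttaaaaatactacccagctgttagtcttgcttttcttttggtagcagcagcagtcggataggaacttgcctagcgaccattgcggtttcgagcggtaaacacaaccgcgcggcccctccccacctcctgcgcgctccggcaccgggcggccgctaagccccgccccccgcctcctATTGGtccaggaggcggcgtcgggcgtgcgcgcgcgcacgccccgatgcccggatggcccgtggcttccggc
In Cdc25b and Mdm2 the capitals are a CCAAT box on the minus strand relative to the gene (28 to 24 and 72 to 68 bases before the start), a motif held by 33.8% of 32851 mouse promoters of the same length. In Cdkn1a they are a pair of CATG with any 6 bases between them, which resembles the binding site of p53. It lies 48 to 35 bases before the first of 2 listed Cdkn1a starts, and 0.49% of these promoters hold such a pair. The window before the second start, chr17:29093519-29093768, is not shown and holds none of the motifs searched. The E-box CACGTG (6.02% of promoters), the RORE core TAGGTCA (2.23%) and the D-box TTANNTAA (5.43%), through which clock proteins act, were searched too. These letters are not in the windows of Cdc25b, Cdkn1a, Cdkn1b and Mdm2 that were searched. Matches describe the letters and are not tests of binding.

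Across the 8 genes, the daily mean of Cdc25b was lower in KO and close to WT in RE, the D-type cyclins changed over the day in WT, and most others differed little. A daily rhythm was tested as a cosine with a period of 6 time points (edgeR quasi-likelihood test, adjusted p under 0.05 over 18515 genes). In WT 2 of the 8 genes were called (Ccnd1 and Ccnd2), against 34.2% of all genes, in RE 1 (Ccnd2) against 13.5%, and in KO none against 7.7%. In KO none of the 8 had an unadjusted p under 0.05 and DESeq2 called none (0 by each). The share of called genes among the 8 was thus not above that of all genes in WT and KO and was 1 gene in RE. Without the 5 libraries in doubt the counts were 3 in WT (35.2% of all genes), 2 in RE (13.8%) and 0 in KO (8.51%), where edgeR gave 1 unadjusted p under 0.05. The median fitted log2 range of the 8 was 0.28 in WT, 0.30 in KO and 0.21 in RE, beside 0.35, 0.22 and 0.27 for all genes tested. Means over the day differed between KO and WT for 2 genes, Cdc25b and Ccnd2, both lower in KO, where 11.3% of all genes were lower. Between RE and KO 1 of the 8, Cdc25b, was higher in RE, where 7.08% of all genes were, and between RE and WT none was called (0.691% of all genes, 0 at an unadjusted p under 0.05 and 0 by DESeq2). Without the libraries in doubt 3 genes were lower in KO than in WT (Cdc25b, Ccnd1 and Ccnd2, where 28.8% of all genes differed and 14.7% were lower), 2 were higher in RE than in KO (18.3% and 9.57%) and none differed between RE and WT (3.77%, with 1 at an unadjusted p under 0.05).

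**Figure D1:**
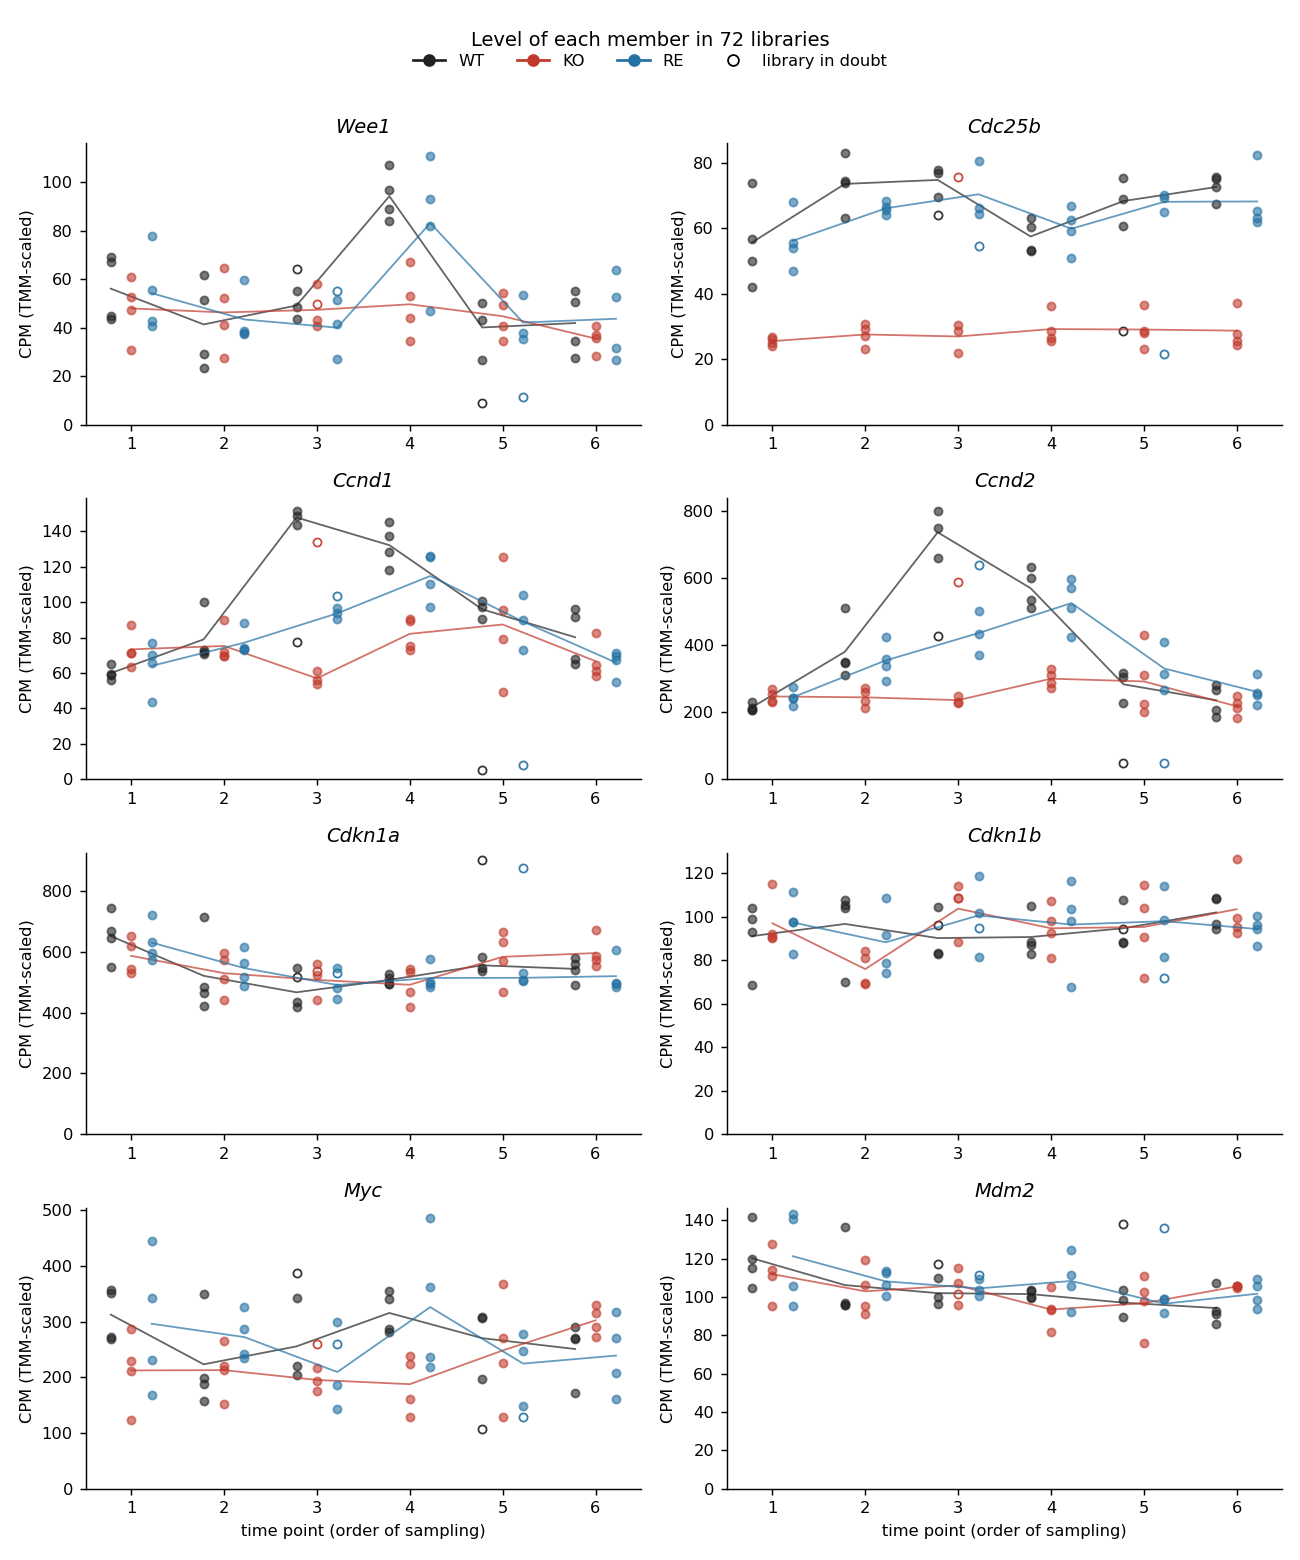
Level of each of the 8 genes in all 72 libraries, in CPM (y axis, from 0) by time point (x axis), with WT in black, KO in red and RE in blue. Points are libraries, open points the 5 libraries in doubt, and lines join group means of the other 67. The line of Cdc25b lies lower in KO at all 6 time points, and Ccnd1 and Ccnd2 peak at time points 3 and 4 in WT.

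Cdc25b (ENSMUSG00000027330, chromosome 2, 131186949 to 131198497, plus strand, GRCm38) encodes a phosphatase that activates CDK1 at the G2 gate. Its level in the 24 WT libraries had a low of 28.5, a median of 68.2 and a high of 82.9 CPM. In the 24 KO libraries these were 21.8, 27.3 and 75.6 CPM, and in the 24 RE libraries 21.6, 64.7 and 82.4 CPM. Without the 5 libraries in doubt, the ranges were 42.2 to 82.9 CPM in WT, 21.8 to 37.2 CPM in KO and 47.0 to 82.4 CPM in RE, so that every KO library lay below every WT and RE library.

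The mean of Cdc25b over the day was lower in KO than in WT by a log2 difference of -1.13 ± 0.10 (SE, n = 24 each, adjusted p = 5.72e-14), or a level of 0.458 of that in WT. RE was 2.09-fold higher than KO (log2 1.07 ± 0.10, adjusted p = 5.71e-13). RE and WT differed by -0.06 (95% interval -0.26 to 0.14, adjusted p = 0.862), so RE may have been lower by up to 0.26 or higher by up to 0.14. Without the 5 libraries in doubt the differences were -1.26 ± 0.06 for KO against WT (adjusted p = 1.49e-24) and 1.21 for RE against KO (1.09e-23), and with the set as a further term -1.33 and 1.21. Leaving out each of the 72 libraries in turn gave values from -1.22 to -1.10 for KO against WT, and the call held in every such fit.

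The group mean of Cdc25b was lower in KO than in WT at each time point. At time point 1 the WT libraries held 42.2, 50.1, 56.7 and 73.8 CPM and the KO libraries 24.2, 24.9, 26.2 and 26.9 CPM. At time point 6 the WT libraries held 75.0, 67.5, 75.7 and 72.6 CPM and the KO libraries 25.7, 37.2, 27.6 and 24.4 CPM. At time point 3 the KO libraries held 75.6 CPM in the library in doubt and 30.4, 21.8 and 28.7 CPM in the others, against 77.9, 64.0, 76.9 and 69.8 CPM in WT. WT and KO do not overlap at time points 1 and 6, and at time point 3 they overlap through the KO library in doubt. At time point 5 they overlap through the WT library in doubt, at 28.5 CPM against 23.0 to 36.5 CPM in KO. Without the libraries in doubt, KO against WT ranged from -1.47 (time point 3) to -0.97 (time point 4, between different sets), each with an adjusted p of 1.45e-07 or below. Of all genes 10.7%, 3.21%, 3.79%, 14.8%, 3.34% and 3.44% were called at time points 1 to 6. RE against KO ranged from 1.03 to 1.38, also called at each time point (0.476%, 1.25%, 0.604%, 4.54%, 1.51% and 1.28% of all genes). With all 72 libraries time point 3 was not called in KO against WT (-0.88, adjusted p = 0.0809, 0.432% of all genes) or in RE against KO (0.76, 0.351, 0.0324%), and the other 5 time points were. At these, 4.82%, 1.04%, 10.1%, 2.5% and 0.789% of all genes were called in KO against WT, and 0.0972%, 0.573%, 1.9%, 1.92% and 0.508% in RE against KO.

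Cdc25b was not called for a cosine rhythm in any genotype with all libraries (log2 range 0.21 in WT, 0.39 in KO and 0.11 in RE). Without the libraries in doubt, a test of any change among the 6 WT group means called it (adjusted p = 0.015, 44.7% of all genes), with the lowest mean at time point 1 (55.7 ± 13.4 CPM, SD, n = 4) and the highest at time point 3 (74.8 ± 4.42 CPM, SD, n = 3). When these libraries were left out and the set was fitted too, the cosine called Cdc25b in WT (0.56 ± 0.19, SE, adjusted p = 0.0463), while KO had 0.41 (0.359) and RE 0.53 (0.194). The step between the sets in this fit was 0.42 ± 0.13 (adjusted p = 0.0118). Spinous layer markers, 6 of 6 measured and none at 0, summed to 15891 to 24600 CPM in WT without the libraries in doubt. In KO they summed to 19794 to 30076 CPM and in RE to 18637 to 28917 CPM. These ranges overlap, and a difference between genotypes was not tested. In the 2 Krt14-low libraries the spinous markers summed to 52254 and 60092 CPM, and Cdc25b was at 28.5 and 21.6 CPM. The part of these markers in the level of Cdc25b was not tested. Basal markers (8 of 8) summed to 16187 to 23737 CPM in KO and 19269 to 24872 CPM in WT. The gene Spef1 on the opposite strand overlaps 92 exonic bases of Cdc25b, and no strand setting is given in the sources used here. Spef1 was lower in KO too (13.2 ± 1.09 CPM against 19.0 ± 2.18 in WT and 19.4 ± 1.60 in RE, SD), with a mean count of 660.5 against 2025 for Cdc25b, so reads of the 2 genes in those bases cannot be told apart.

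**Figure D2:**
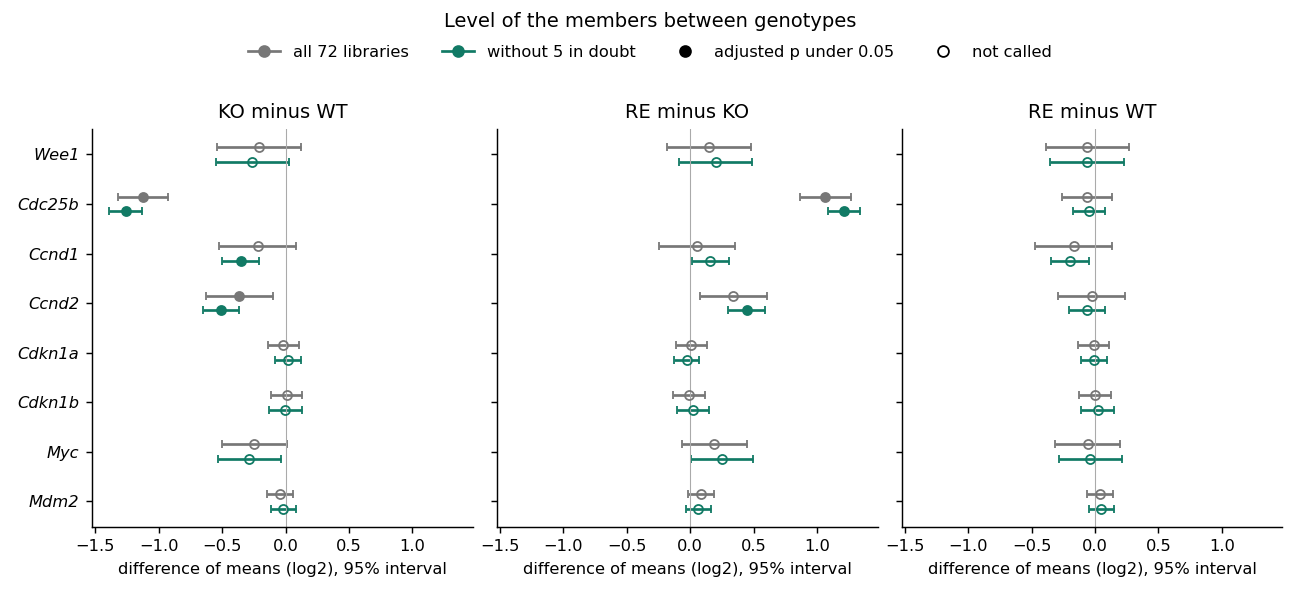
Differences of the daily mean between genotypes on the log2 scale (x axis) for the 8 genes (y axis), with 95% intervals. Grey is the fit of all 72 libraries and green the fit without the 5 in doubt, and filled points have an adjusted p under 0.05. Cdc25b lies at -1.13 in KO minus WT and at 1.07 in RE minus KO, and no point is filled in RE minus WT.

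Wee1 (ENSMUSG00000031016, chromosome 7, 110122046 to 110143286, plus strand), the kinase that opposes CDC25 at the G2 gate, was high at time point 4 in WT and RE. The WT libraries there held 107, 96.8, 89.0 and 83.8 CPM and the RE libraries 111, 93.1, 81.9 and 46.7 CPM, while the KO libraries held 67.1, 53.1, 34.3 and 44.0 CPM. At time point 3, just before, the WT libraries held 48.6, 64.2, 43.7 and 55.1 CPM and the KO libraries 49.7, 43.2, 58.2 and 40.6 CPM. All WT libraries of time point 4 lay above all KO libraries of that time, and 3 of 4 RE libraries did. At time points 1, 2, 3, 5 and 6 the WT and KO ranges overlapped.

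The cosine did not call Wee1 in WT (log2 range 0.69 ± 0.33, SE, adjusted p = 0.176), KO (0.31, 0.878) or RE (0.43, 0.577). When the libraries in doubt were left out and the set was fitted too, the ranges were 0.96 (0.0505), 0.86 (0.376) and 1.37 (0.102), also not called. The test of any change among the 6 group means did, in WT (adjusted p = 0.00265, 44.4% of all genes) and RE (0.0431, 18.6% of all genes), and not in KO (0.933, 9.35% of all genes). Within the sets alone the change was called in WT (adjusted p = 0.0392, 25.8% of all genes) and not in RE (0.0774, 3.95% of all genes). At time point 4 KO was below WT by -0.92 ± 0.34 (SE, adjusted p = 0.0734), or -0.92 with an adjusted p of 0.0178 without the libraries in doubt, where 14.8% of all genes were called. WT and KO lie in different sets at this time point, so genotype and set cannot be told apart there. RE and KO share a set at time point 4, and their difference of 0.75 was not called (adjusted p = 0.322). Means over the day differed by -0.21 between KO and WT (95% interval -0.54 to 0.12, adjusted p = 0.398). The Krt14-low libraries of WT and RE at time point 5 held the lowest Wee1 levels of all, 8.74 and 11.3 CPM.

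Ccnd2 (ENSMUSG00000000184, chromosome 6, 127125162 to 127152193, minus strand), a D-type cyclin of the G1 gate, rose and fell most among the 8. In WT the libraries held 207, 214, 231 and 207 CPM at time point 1 and 750.0, 427, 801 and 659 CPM at time point 3, where the 427 is the library in doubt. In KO they held 253, 234, 232 and 269 CPM at time point 1 and 588, 249, 232 and 228 CPM at time point 3, where the 588 is the library in doubt. In RE they held 242, 244, 218 and 276 CPM at time point 1 and 371, 639, 435 and 503 CPM at time point 3, where the 639 is the library in doubt. At time point 1 the KO libraries lay just above the WT libraries, without overlap (log2 0.20, adjusted p = 0.763), and the RE libraries overlapped both. At time point 3 the undoubted libraries lay highest in WT, lower in RE and lowest in KO, with no overlap between them.

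The log2 range of Ccnd2 was 1.73 ± 0.26 in WT (SE, peak at 3.22 ± 0.15 on the time point scale, adjusted p = 1.78e-06), a 3.31-fold change, and 1.18 ± 0.26 in RE (peak 3.33, 0.00251). In KO it was 0.50 ± 0.26 and not called (0.524), or 0.33 without the libraries in doubt (0.26). The difference of the rhythm itself between KO and WT had a log2 range of 1.30 ± 0.37 and an adjusted p of 0.118, where 1.34% of all genes were called and none of the 8 (1 at an unadjusted p under 0.05, 0 by DESeq2). Without the libraries in doubt it was called, at 1.57 ± 0.21 (adjusted p = 1.22e-06, 4.79% of all genes), and at 1.66 with the set as a term. Leaving out the library labelled KO time point 3 replicate 1 alone, or RE time point 5 replicate 3 alone, already brought the call, with the lowest adjusted p at 0.0274. RE did not pass this test against WT (0.58, adjusted p = 1, 0.027% of all genes called) or against KO (0.72, adjusted p = 1, 0% of all genes called), and without the libraries in doubt it did not either (0.74 and 0.84, adjusted p = 0.147 and 0.442, where 0.529% and 0.00535% of all genes were called).

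The daily mean of Ccnd2 was lower in KO than in WT by -0.37 ± 0.13 (adjusted p = 0.0406), a call that was lost in 20 of 72 fits that each left out 1 library (adjusted p from 0.00378 to 0.067). Those libraries were, in WT, replicate 3 at time point 2, replicates 1 and 3 at time point 3, 2 and 4 at time point 4, 1 at time point 5, and 1, 3 and 4 at time point 6. In KO they were replicates 1 and 2 at time point 2, 2, 3 and 4 at time point 3, 2 and 3 at time point 4, 3 and 4 at time point 5, and 3 and 4 at time point 6. The call was also lost when the set was fitted (-0.36, adjusted p = 0.0617), with no filter on low counts (-0.36, 0.0633) and with only time points of the same set (-0.24, 0.282). Without the 5 libraries in doubt it was -0.51 ± 0.07 (6.38e-08), and RE was then higher than KO by 0.44 ± 0.07 (2.44e-06). With all libraries RE against KO was 0.34 (adjusted p = 0.0827), a difference that was called when any 1 of WT time point 5 replicate 4, KO time point 3 replicate 1, KO time point 5 replicate 1 or RE time point 5 replicate 3 was left out (lowest adjusted p = 0.00885). At single time points, without the libraries in doubt, KO was below WT at time points 2 (-0.64, adjusted p = 0.0122), 3 (-1.64, 6.35e-09) and 4 (-0.92, 1.42e-05), the last between different sets, where genotype and set cannot be told apart. At time point 3 this was the case for 3 of the 8 genes (Cdc25b, Ccnd1 and Ccnd2), where 3.79% of all genes were called in either direction. RE was above KO for the same 3 genes at time point 3 (0.604% of all genes), with Ccnd2 at 0.89 (0.00509), and at time point 4 for Cdc25b and Ccnd2 (0.80, 0.000727), where 4.54% of all genes were called.

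**Figure D3:**
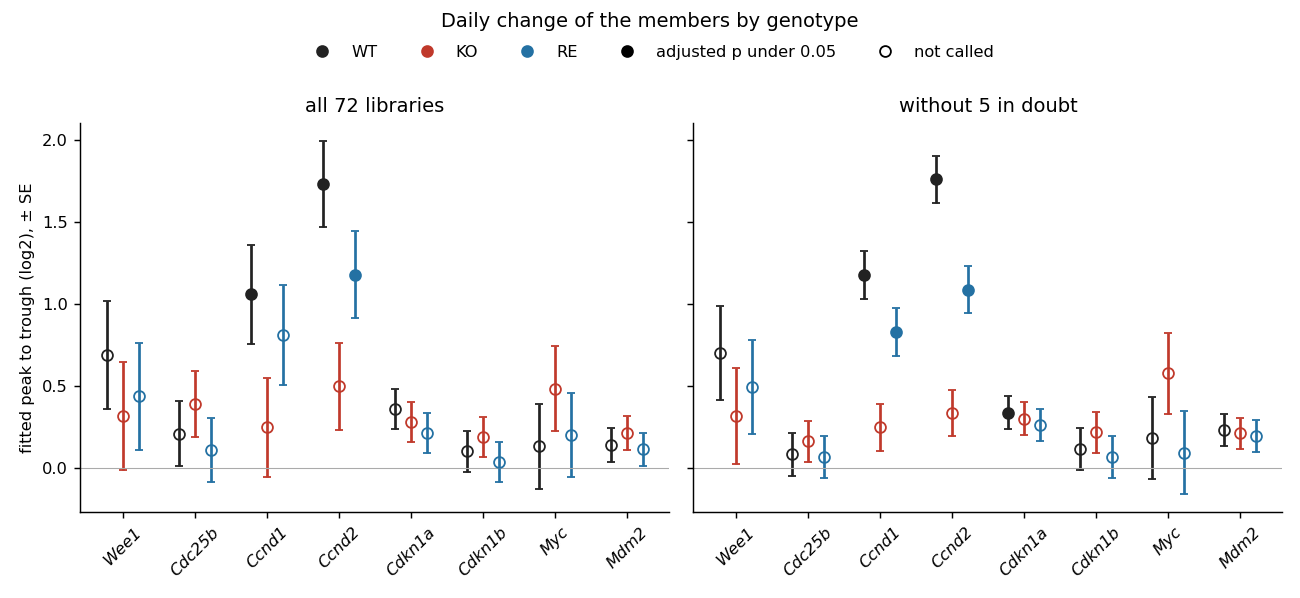
Fitted peak-to-trough range on the log2 scale (y axis, ± SE) of the 8 genes (x axis) in WT, KO and RE, with all 72 libraries on the left and without the 5 in doubt on the right. Filled points have an adjusted p under 0.05. Ccnd2 reaches 1.73 in WT and 1.18 in RE on the left, and no KO point is filled in either panel.

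Ccnd1 (ENSMUSG00000070348, chromosome 7, 144929931 to 144939925, minus strand), the other D-type cyclin among the 8, followed the same course at a lower level. In WT the libraries held 59.0, 56.2, 59.7 and 64.9 CPM at time point 1 and 151, 77.8, 149 and 143 CPM at time point 3, where the 77.8 is the library in doubt. In KO they held 134, 61.1, 53.6 and 56.3 CPM at time point 3, where the 134 is the library in doubt, and in RE 94.1, 103, 90.3 and 96.7 CPM. The undoubted WT libraries of time point 3 lay above all RE libraries, and these lay above the undoubted KO libraries.

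The log2 range of Ccnd1 was 1.06 ± 0.30 in WT (SE, peak 3.59 ± 0.27, adjusted p = 0.0131), 0.81 in RE (adjusted p = 0.133) and 0.24 in KO (0.908). Without the libraries in doubt these were 1.18 ± 0.15 (3.14e-08), 0.83 ± 0.15 (7.95e-05) and 0.25 (0.513), and the rhythm then differed between KO and WT (1.12 ± 0.21, adjusted p = 0.00159). Leaving out the library labelled WT time point 5 replicate 4 alone gave RE an adjusted p of 0.0276. The daily mean in KO was -0.22 against WT with all libraries (95% interval -0.52 to 0.08, adjusted p = 0.326) and -0.35 ± 0.07 without those in doubt (0.000151), where 14.7% of all genes were lower in KO. At time point 3 KO was then below WT by -1.37 ± 0.19 (adjusted p = 5.42e-07) and below RE (0.72 higher in RE, 0.0464). LTO1 on the opposite strand shares 1100 exonic bases with Ccnd1, and its mean level was 22.3 CPM in WT, 23.1 in KO and 23.1 in RE without the libraries in doubt. The Krt14-low libraries held 5.42 and 7.95 CPM of Ccnd1 and 47.6 and 47.5 CPM of Ccnd2, below all others.

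Set beside clock genes, the cyclins of WT peaked near Dbp, between Nr1d1 and Per2. In WT without the library in doubt, Dbp had a mean of 2.31 ± 0.27 CPM at time point 1 (SD, n = 4) and of 118 ± 32.9 CPM at time point 3 (SD, n = 3). With all libraries its fitted peak lay at 3.48, near the 3.22 of Ccnd2 and the 3.59 of Ccnd1. The WT peaks of Nr1d1, Per2 and Arntl lay at 2.57, 4.22 and 6.61 in this fit. In KO without the library in doubt the Dbp group means stayed between 5.05 and 6.71 CPM, and those of Ccnd2 between 218 and 300.1 CPM. Mki67, a marker of cycling cells, ran at another time in WT: its mean was 246 ± 24.9 CPM at time point 1 but 129 ± 43.2 CPM at time point 4 (SD, n = 4). Its cosine peaked at 6.75 (log2 range 1.05, adjusted p = 0.0739, or 1.10 with 0.00124 without the libraries in doubt). Mki67 did not differ in daily mean between KO and WT beyond its error (0.06, 95% interval -0.33 to 0.45).

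**Figure D4:**
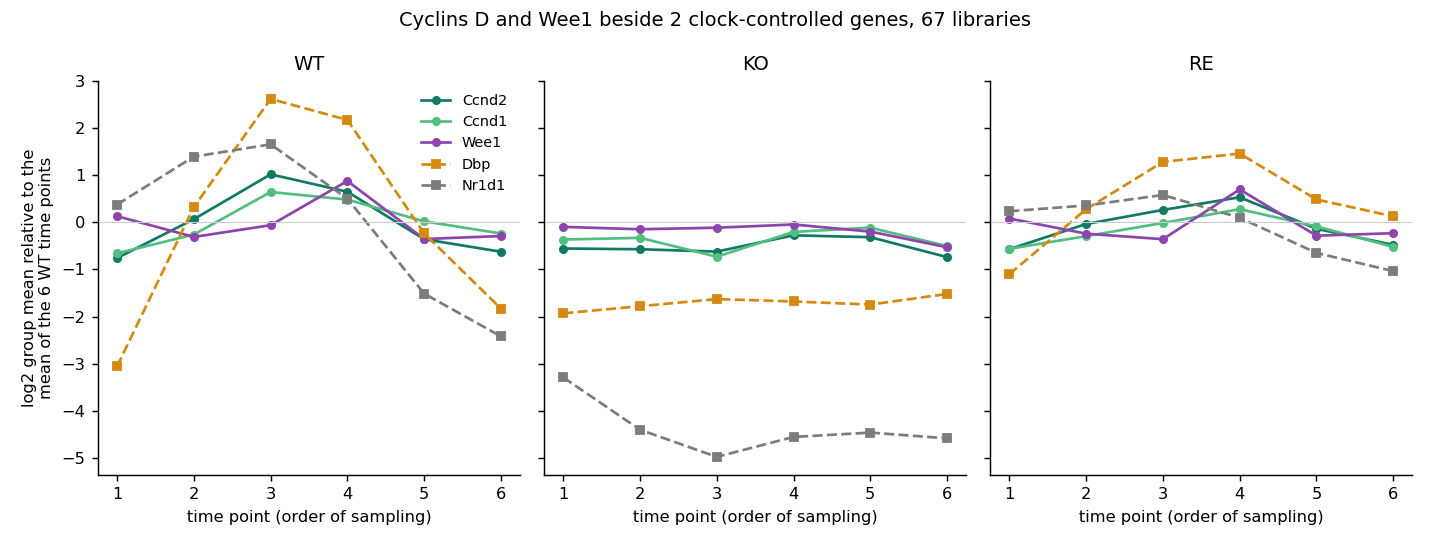
Group means of Ccnd2, Ccnd1 and Wee1 (solid lines) and of the clock-controlled genes Dbp and Nr1d1 (dashed) by time point (x axis) in WT, KO and RE without the 5 libraries in doubt, on the log2 scale relative to the mean of the 6 WT time points (y axis). In WT the cyclins and Dbp are highest at time point 3 and Wee1 at time point 4, and in KO the Ccnd2 means span 218 to 300.1 CPM and the Dbp means 5.05 to 6.71 CPM.

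Cdkn1a (ENSMUSG00000023067, chromosome 17, 29090976 to 29100727, plus strand), the p21 inhibitor and the textbook target of p53, was the most abundant of the 8 per length, at 157 ± 31.2 CPM per kilobase of exon in WT (SD, n = 24). Its WT libraries held 744, 667, 646 and 550.1 CPM at time point 1 and 417, 516, 435 and 547 CPM at time point 3, and the 2 groups did not overlap. Its KO libraries held 620.2, 529, 653 and 543 CPM at time point 1 and 537, 440.5, 560 and 522 CPM at time point 3, and these overlapped. The log2 range in WT was 0.36 ± 0.12 (SE, peak 6.09, adjusted p = 0.0566), which became 0.33 and called without the libraries in doubt (0.0223), and it was also called in 8 of 72 fits that each left out 1 library. Those libraries were WT time point 2 replicate 3, WT time point 3 replicate 4, WT time point 6 replicates 2, 3 and 4, KO time point 5 replicate 4, RE time point 1 replicate 2 and RE time point 5 replicate 3 (lowest adjusted p = 0.0224). KO had 0.28 (adjusted p = 0.351) and RE 0.21 (0.44). When the libraries in doubt were left out and the set was fitted too, WT (0.52, adjusted p = 0.00454) and KO (0.48, 0.0413) were called and RE (0.26, 0.27) was not. The rhythm did not pass the test of a difference between any pair of genotypes. Daily means differed by -0.02 between KO and WT (95% interval -0.14 to 0.10), so a difference above 0.14 in either direction lies outside this interval. The highest levels, 901 and 874 CPM, were in the 2 Krt14-low libraries.

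Cdkn1b (ENSMUSG00000003031, chromosome 6, 134920401 to 134925513, plus strand), the p27 inhibitor, was called in no comparison. Its lowest and highest group means were both in KO, at 75.8 ± 7.80 CPM (time point 2) and 105 ± 11.4 CPM (time point 3, SD, n = 4). Its log2 range was 0.10 in WT, 0.19 in KO and 0.03 in RE, with adjusted p of 0.795, 0.699 and 0.981. Daily means of KO and WT differed by 0.01 (95% interval -0.11 to 0.13) and those of RE and WT by 0.00 (-0.12 to 0.12). Leaving out the libraries in doubt, the ranges were 0.12, 0.22 and 0.07 and no call was gained. In WT the libraries ranged from 68.4 to 108 CPM, in KO from 68.8 to 126 CPM and in RE from 67.7 to 119 CPM, with full overlap.

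Myc (ENSMUSG00000022346, chromosome 15, 61985391 to 61990374, plus strand), the growth-promoting transcription factor, varied widely among libraries of the same group. In WT at time point 2 they held 188, 198, 351 and 157 CPM, and in RE at time point 4 they held 486, 363, 237 and 219 CPM. In KO at time point 5 they held 129, 227, 271 and 367 CPM, a spread wider than the whole range of group means, from 188 ± 51.9 CPM (KO time point 4) to 326 ± 124 CPM (RE time point 4). No rhythm was called (log2 range 0.13 in WT, 0.48 in KO and 0.20 in RE). The daily mean in KO was -0.25 against WT (95% interval -0.50 to 0.01, adjusted p = 0.173), and -0.28 without the libraries in doubt (0.0741). At time point 4 KO was then below WT by -0.75 ± 0.28 (adjusted p = 0.0666), where the 4 KO libraries (128 to 239 CPM) lay below the 4 WT libraries (281 to 355 CPM) but in another set.

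Mdm2 (ENSMUSG00000020184, chromosome 10, 117688875 to 117710758, minus strand), the ubiquitin ligase of p53 and itself a target of p53, was called in no comparison of groups. Group means lay between 93.5 ± 9.63 CPM (KO time point 4) and 121 ± 24.4 CPM (RE time point 1). Its log2 range was 0.14 in WT, 0.21 in KO and 0.11 in RE, with adjusted p of 0.523, 0.455 and 0.72. Daily means differed by -0.05 between KO and WT (95% interval -0.15 to 0.06) and by 0.08 between RE and KO (-0.02 to 0.19). Leaving out the libraries in doubt, the ranges were 0.23, 0.21 and 0.19 and no call was gained. Per kilobase of exon in WT, Myc followed Cdkn1a at 99.5 ± 27.5 CPM and Ccnd2 came next at 40.5 ± 21.2 CPM (SD, n = 24). Mdm2 (20.8), Cdkn1b (20.7), Ccnd1 (19.6), Cdc25b (17.4) and Wee1 (15.5 CPM per kilobase) lay within 1 SD of their neighbours in this order.

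Within groups, some of the 8 genes moved together from library to library. These relations were computed on deviations from the group mean over the 67 libraries not in doubt, with 52 relations in the family (28 among the genes, the others with immediate early genes, reads in genes and reads in no gene), p from 100000 permutations within groups and Benjamini-Hochberg adjustment. The smallest p these permutations can give is 1e-05. Of the 28 relations 12 were called, 7 of them positive. Pairs of other genes were not put through this test, so the count has no share of all pairs beside it. Several called pairs ranked low among 10936 genes. Wee1 was 481st from the highest r for Myc, though Myc was 50th for Wee1. Cdkn1b was 1143rd from the lowest for Cdkn1a, and Cdkn1a 1058th for Cdkn1b. Myc and Mdm2 had r = 0.82 (rho = 0.80, permutation p = 1e-05 and adjusted p = 0.000173 for r, 0.000104 for rho), with 0.83 and 0.82 in the 2 sets, 0.80 in WT, 0.88 in KO, 0.79 in RE and 0.79 without the 2 libraries farthest from the median of Myc. Cdkn1a and Mdm2 had r = 0.71 (rho = 0.68, adjusted p = 0.000173, 0.72 and 0.69 in the sets, 0.63 without 2 libraries). Wee1 and Myc had r = 0.66 (rho = 0.70, adjusted p = 0.000173, 0.81 and 0.50 in the sets, 0.65 without 2 libraries). Cdkn1a and Myc had r = 0.59 (rho = 0.63, adjusted p = 0.000208, 0.51 and 0.75 in the sets, 0.52 without 2 libraries).

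Each pair among Myc, Mdm2 and Cdkn1a was thus called. Wee1 was called with Myc and with Mdm2 (r = 0.42), and not with Cdkn1a (r = 0.34, adjusted p = 0.0795). Many other genes moved with Myc: 23.5% of 10936 genes had an absolute r above 0.5 with it, and Mdm2 ranked 89th among them. The mean of 8 immediate early genes, which dissociation of tissue is known to raise, moved with Mdm2 (r = 0.57, rho = 0.55, adjusted p = 0.000693, 0.41 and 0.79 in the sets), Cdkn1a (0.49, rho = 0.49, 0.00637, 0.32 and 0.75) and Myc (0.44, rho = 0.42, 0.0175, 0.27 and 0.61). In WT alone these were 0.13, 0.05 and 0.13. Their part in the relations among the 3 genes was not tested. Cdkn1a also fell with the share of reads in no gene (r = -0.43, rho = -0.42, adjusted p = 0.0179), the single call among 16 relations with depth or that share.

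Ccnd1 and Ccnd2 had r = 0.71 (rho = 0.69, adjusted p = 0.000208), and each was the gene with the highest r for the other among the 10936. This relation was 0.90 within the 30 libraries of the second set and 0.32 within the 37 of the first, 0.84 in WT, 0.84 in KO, 0.43 in RE and 0.61 without the 2 libraries farthest from the median of Ccnd1. In the first set the relation was thus weaker than in the pooled libraries. Negative relations were called for Wee1 and Cdkn1b (r = -0.52, rho = -0.51, adjusted p = 0.000743, -0.50 and -0.55 in the sets), Cdc25b and Mdm2 (-0.45, rho = -0.43, 0.0127, -0.42 and -0.51) and Cdkn1a and Cdkn1b (-0.42, rho = -0.39, 0.0225, -0.62 and -0.08). Cdkn1b and Ccnd2 (-0.41, rho = -0.33, 0.0262, -0.25 and -0.55) and Cdc25b and Myc (-0.37, rho = -0.34, 0.0223, -0.25 and -0.50) were called too, the former not by its rho (adjusted p = 0.0581). The other positive calls were Wee1 and Mdm2 (0.42, rho = 0.45, 0.0179, 0.64 and 0.12 in the sets) and Cdc25b and Ccnd1 (0.41, rho = 0.33, 0.0223, 0.17 and 0.60), and both were weak in 1 of the sets.

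**Figure D5:**
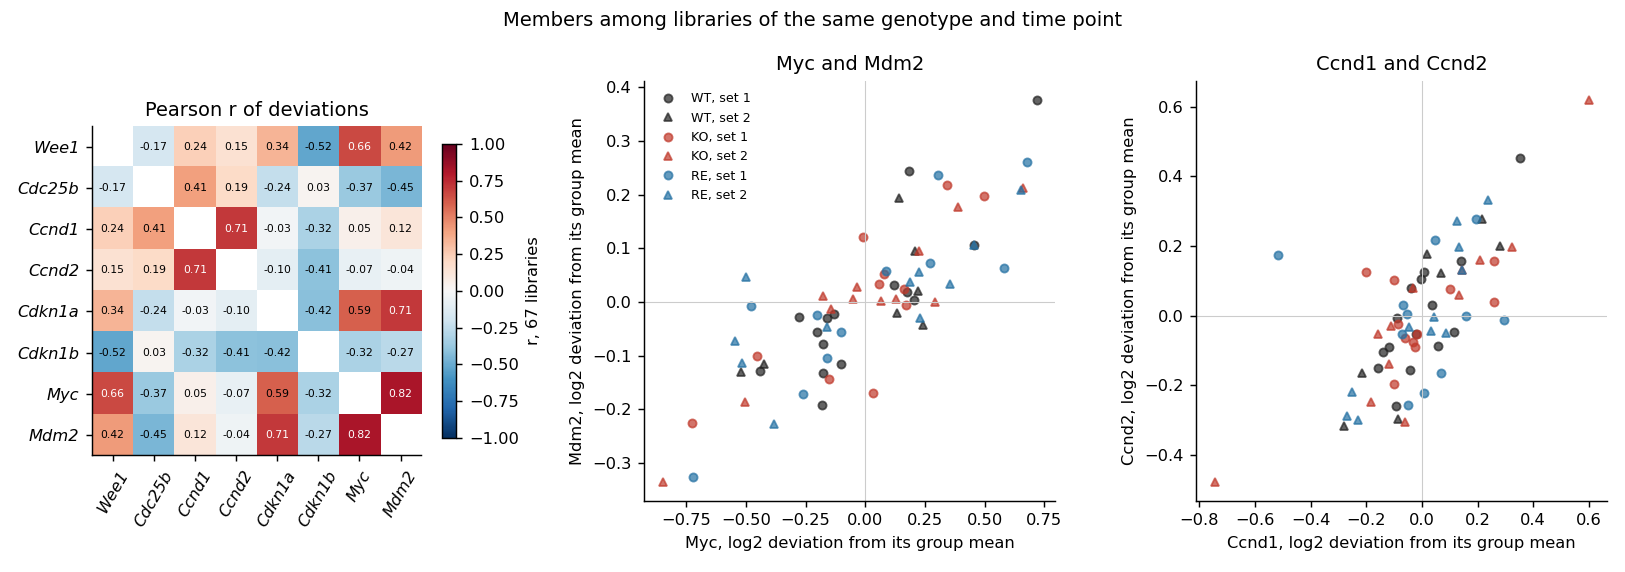
Relations of the 8 genes among libraries of the same genotype and time point. Left, Pearson r of log2 deviations from the group mean for each pair over 67 libraries (colour from -1 to 1); centre and right, Myc against Mdm2 and Ccnd1 against Ccnd2, in log2 deviations on both axes, with genotype by colour and set by symbol. Myc and Mdm2 follow 1 line in both sets (r = 0.82), and Ccnd1 and Ccnd2 (r = 0.71) are closer in the second set.

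Over the 18 group means, centred within the sets, the genes most like each of the 8 were sought among 10141 protein-coding genes, as a description. Ccnd2 was most like Dbp (r = 0.93), Ccnd1 (0.93) and the collagen gene Col16a1 (0.92), and Ccnd1 was most like Ccnd2 (0.93), Shmt1 (0.90) and Ppp1r9b (0.90). Cdc25b was most like its overlapping neighbour Spef1 (0.97), Gsdmc (0.94) and Ankrd24 (0.94). Cdkn1a was most like Rnf19b (0.94), Dnaja1 (0.93) and Adamts1 (0.92), and Mdm2 like Gxylt1 (0.92), Tmem170b (0.91) and Pim3 (0.89). Myc was most like Sertad1 (0.91), Sos1 (0.90) and Arid2 (0.90), Wee1 like Spin1 (0.85), Stk35 (0.83) and Ggps1 (0.82), and Cdkn1b like Traf1 (0.73), Igdcc4 (0.69) and Klf8 (0.68). High values are common over 18 points: 6.74% of the genes had an r above 0.7 with Cdkn1a, 3.30% with Cdc25b and 2.97% with Ccnd2.

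Partners of the 8 genes in their pathways were read beside them, against the shares of all genes called for a rhythm, which were 34.2%, 7.7% and 13.5% for WT, KO and RE, or 35.2%, 8.51% and 13.8% leaving out the libraries in doubt. Of 21 measured G1 to S partners (22 listed) 13 were called in WT, 1 in KO and 5 in RE. Leaving out the libraries in doubt gave 14, 1 and 8. Of 16 G2 to M partners 13, 1 and 4 were called, and without the libraries in doubt 15, 1 and 9. The cyclins that activate CDK1 led the latter, with Ccnb2 at a log2 range of 1.82 (peak 1.03, adjusted p = 0.000116) and Ccnb1 at 1.82 (peak 1.16), together with the mitotic kinase Plk1 (1.76, peak 1.21). Sfn, a 14-3-3 protein of keratinocytes, had 1.00 in WT and was the 1 called in KO, with 1.17 there. The median log2 range of the G2 to M list was 1.17 in WT, against 0.35 for all genes and 0.28 for the 8. Without the libraries in doubt the rhythm differed between KO and WT for 9 of the 16, where 4.79% of all genes were called. Among the 9 were Ccnb1, Ccnb2, Ccna2, Cdc25c and Aurka. With all libraries it differed for none, where 1.34% of all genes were called.

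In the G1 to S list E2f1, a transcription factor of S phase genes, had a log2 range of 1.71 in WT with a peak at 4.02 (adjusted p = 0.0004). The fitted peaks of Ccnd2 and Ccnd1 were 3.22 and 3.59, and the order of these peaks was not tested. E2f2, an E2F family member, was higher in KO by 0.89 ± 0.07 (SE, adjusted p = 7.94e-16) and lower in RE than in KO (-0.75, 3.49e-13), the opposite course to Cdc25b. E2f2 also changed over the day in WT (0.82, peak 5.68), as did the G1 kinase Cdk6 (0.41, peak 6.97) and the inhibitor Cdkn2c (0.62, peak 6.30). Of the 21 genes 7 differed between KO and WT in daily mean, 5 higher and 2 lower in KO, where 20.3% of all genes differed, and E2f3 was among the higher (0.32). Between RE and KO 5 differed, 2 higher and 3 lower in RE, where 12.2% of all genes differed, and Cdk6 was among the lower (-0.17). None of the 16 G2 to M partners differed in daily mean between KO and WT with all libraries. Without the libraries in doubt 1 was lower in KO, where 28.8% of all genes differed.

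Of 21 p53 pathway genes 11 were called in WT, 3 in KO and 6 in RE, or 8, 3 and 6 without the libraries in doubt, against the same shares of all genes. Sesn2, which restrains mTORC1, was called in each, with log2 ranges of 2.14 (peak 1.12), 1.66 and 1.97, and Bbc3, a promoter of apoptosis, had 0.92 in WT (peak 1.21). Sesn1 (0.58, peak 3.80) and the ribonucleotide reductase subunit Rrm2b (0.65, peak 2.65) peaked later. Eda2r (-0.33) and Tnfrsf10b (-0.22), both death receptors of the TNF family, were lower in KO than in WT, and 1 further gene of the list was higher. Of all genes 20.3% differed in this comparison and 11.3% were lower in KO. Without the libraries in doubt 5 of the 21 differed, 3 higher and 2 lower in KO, where 28.8% of all genes differed. Of 13 genes of the Myc network 6 were called in WT, 0 in KO and 3 in RE, led by Mycl (0.77, peak 4.31), Mxd3 (1.61, peak 6.57), Mycn (1.41, peak 1.71) and Mxi1 (0.31), which lost its call without the libraries in doubt (adjusted p = 0.0585). The counts were then 4, 0 and 3. Mycn, a close relative of Myc, was lower in KO than in WT (-0.66, adjusted p = 0.0143) and higher in RE than in KO (0.59, 0.0459), while Mycl was higher in KO than in WT (0.19) and Zbtb17 lower in RE than in KO (-0.13). Of 16 Myc and growth targets 5 were called in WT, 1 in KO and 4 in RE, or 6, 1 and 3 without the libraries in doubt, shares of the list near those of all genes in WT and KO. Those called in WT include the nucleolar Ncl (0.55, peak 2.36), Fbl (1.10, peak 1.75) and Pes1 (0.16) and the polyamine enzyme Odc1 (0.85, peak 1.93). None of the 16 differed in daily mean between KO and WT with all libraries, where 20.3% of all genes did. Without the libraries in doubt 1 was higher in KO, where 28.8% of all genes differed. No gene of these 5 lists differed in daily mean between RE and WT with all libraries, where only 0.691% of all genes did. Without the libraries in doubt 2 G1 to S partners differed, 1 higher and 1 lower in RE, where 3.77% of all genes did. Beside them, 17 of 19 clock genes were called in WT, 4 in KO and 10 in RE, or 17, 0 and 12 without the libraries in doubt.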

How the data were processed

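RNA-seq was measured in 72 libraries, 4 females in each of 18 groups. The authors deposited raw read counts per gene made with Trimmomatic, TopHat2 2.1.1 and HTSeq on mm10 (GRCm38), per the submitters' processing notes. No strand setting or annotation version is named in the labels or notes. The 5 HTSeq summary lines were left out (12.8% to 20.0% of reads in no gene, 1.16% to 2.60% ambiguous). Of 46078 genes 45143 were matched to GENCODE M21.

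Counts were scaled by TMM and tested with edgeR 4.0.16 (R 4.3.3, quasi-likelihood), with a mean, cosine and sine per genotype (9 coefficients, period 6), after filterByExpr over 18 groups (18515 genes, or 18703 without the 5 libraries in doubt). P-values were Benjamini-Hochberg adjusted over all genes, with a threshold of 0.05. The range of a rhythm difference is the peak-to-trough range of the difference between 2 fitted curves. Time points were compared with a mean per group. Alternatives used DESeq2 1.42.0, other filters and fewer libraries. The statistics were tested on simulated data. Libraries were called in doubt after the data were seen, where a scale of 50 genes lay past 0.75 or under 0.25, or Krt14 was under 1000 CPM.

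The 8 genes and all lists were chosen with earlier results of these data known. Pathway genes are named by rule: up to 4 per list for rhythm in WT and 2 per list for each difference of means, by lowest adjusted p among those called. Ccna2, Cdc25c and Aurka are outside this rule and were picked as examples of the rhythm difference between KO and WT. Leaving out each library in turn, the tests at single time points and the relations among libraries were added after seeing the data. The 3 genes most like each of the 8 are named too. Likeness was Pearson's r over 18 group means among protein-coding genes with a mean of at least 5 CPM.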

Additional observations from a re-analysis of the deposited data

Results flagged for a closer look

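In 18 of 144 groups of 4 libraries, the highest or lowest library stood so far from the nearest of the other 3, relative to the group's range, that it passed Dixon's 95% limit. Chance alone gives about 1 in 20. Of the 18, 9 lay in the libraries in doubt. These were Cdkn1a at 901 CPM in WT time point 5 replicate 4 and 874 CPM in RE time point 5 replicate 3, Cdc25b at 75.6 CPM in KO time point 3 replicate 1 and 21.6 CPM in RE time point 5 replicate 3, and Mdm2 at 136 CPM in RE time point 5 replicate 3. Ccnd1 stood apart at 77.8 CPM in WT time point 3 replicate 2, 5.42 CPM in WT time point 5 replicate 4 and 134 CPM in KO time point 3 replicate 1, and Ccnd2 at 588 CPM in the last of these.

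The other 9 lay in libraries that carried no doubt. WT time point 2 replicate 3 held 3 of them, with Ccnd1 at 99.8 CPM, Mdm2 at 136 CPM and Cdkn1b at 69.7 CPM. Ccnd1 also stood apart at 89.7 CPM in KO time point 2 replicate 3 and 88.0 CPM in RE time point 2 replicate 2. The remaining 4 were Wee1 at 59.7 CPM in RE time point 2 replicate 3, Cdkn1a at 605 CPM in RE time point 6 replicate 2, Cdkn1b at 115 CPM in KO time point 1 replicate 4 and Cdc25b at 82.4 CPM in RE time point 6 replicate 3.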

How the results depend on the processing

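Counts below are of the 8 genes called. Comparing daily means of KO with WT called 2, but 1 with no filter on low counts (where 3300 of all genes were called). It was also 1 when the set entered as a term (3231 of all genes) and from only the time points that share a set (2844). In each of these Cdc25b held and Ccnd2 lost its call. The count was 1 to 2 without a replicate number. For the rhythm in WT it was 2. It rose to 4 when the set was a term and the 5 libraries in doubt were left out (5939 of all genes). With only the genotypes compared it was 1 (4476 of all genes). It was 4 for any change among group means (8227 of all genes) and 1 to 3 without a replicate number. For the rhythm in RE it was 1, with 2 without the libraries in doubt, 2 with the set as a term as well, 2 for any change among group means and 0 to 1 without a replicate number. For the rhythm in KO it was 0, and 1 with the set as a term and the libraries in doubt left out (1059 of all genes). For the KO against WT difference in rhythm it was 0, and 2 without the libraries in doubt, with or without the set. For RE against KO means it was 1, and 2 in both these fits. No called value changed sign. Of 1032 values of single genes 999 kept their side of the threshold, 22 gained a call and 11 lost one. The causes were not tested.

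Over all genes, the rhythm difference between KO and WT was called for 249, against 895 without the libraries in doubt, 981 with the set as well, 541 by an interaction with group means, 386 by DESeq2, 168 with no filter and 30 to 98 without a replicate number. RE against WT means gave 128, against 706, 607, 194 (DESeq2), 85 (no filter), 55 (only the genotypes compared), 65 (same set) and 17 to 179. The rhythm difference between RE and WT gave 5, against 99, 81, 336 (interaction), 22 (DESeq2), 3 (no filter), 1 (counts of at least 100, or the set as a term) and 0 to 10. The rhythm in KO gave 1425, against 540 with the set as a term, 338 within sets and 894 with counts of at least 100, and that in RE 2494, against 569, 731, 1583, 1016 (set and libraries in doubt), 1615 (only the genotypes compared) and as few as 1350 without a replicate number. RE against KO means gave 2261, against 3415, 3609 and as few as 1064 and 1433 without a replicate number. The rhythm in WT gave 6332, against 3519 and 4002, and KO against WT means 3759, against 1849 and 2477.

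Same-numbered libraries of different groups were slightly more alike than others, and a pairing was not tested. Their deviations had a median r of 0.0331 against -0.0144 for other numbers. Of 612 same-numbered pairs 38.7% were above 0.1, and 27 of 72 libraries correlated best with their own number. With the replicate block the counts of the 8 genes were unchanged at 2, 0 and 1 for rhythms in WT, KO and RE, 0 for each rhythm difference, and 2, 0 and 1 for the means of KO against WT, RE against WT and RE against KO (all genes 6365, 1406, 2479, 240, 6, 0, 3794, 125 and 2273).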
